A study of Mus musculus with 23 samples.

Results

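The 44 genes described here encode enzymes and remodellers that write, erase or move chromatin marks. They were taken by symbol from a gene count table of striatal microglia, and 44 of its 35976 genes carry these symbols. They comprise 8 acetyltransferases, 8 deacetylases, 12 histone methyltransferases, 7 histone demethylases, 4 enzymes of DNA methylation and 5 remodellers. The libraries came from male C57BL/6J mice that pressed a lever for intravenous infusions during 15 daily sessions of 2 hr. The labels' protocol gives an age of 9 weeks for all 3 groups, and the age of each group at collection is not given here. The Saline group (n = 8 libraries) received 0.9% saline. The Maintenance group (n = 8) received methamphetamine at 0.05 mg/kg per infusion, and both groups were collected right after the final session. The Abstinence group (n = 7) had the same methamphetamine sessions followed by 21 drug-free days in their home cages. All 3 groups carried a catheter and had the same operant training. The 23 libraries include no saline group held for those 21 days. In the comparison of Abstinence with Saline, drug history, age and time in the home cage therefore cannot be told apart. In Abstinence against Maintenance, time since the last session, age and time in the home cage cannot be told apart either. The labels do not say how many mice gave each library, and p-values measure the spread between these libraries.

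Chromatin enzymes work in opposing pairs. Acetyltransferases place acetyl groups on histone lysines, which loosens the fibre and recruits bromodomain proteins, and deacetylases remove them. Methyltransferases and demethylases set methyl marks that can go with active genes, as at promoters marked by the KMT2 family, or with silenced genes, as in the Polycomb domains laid down by Ezh2. DNA methyltransferases and TET enzymes add and oxidise methyl groups on cytosine, and SWI/SNF and CHD remodellers slide or evict nucleosomes with energy from ATP. In microglia these enzymes are known for setting the enhancers of identity and inflammatory genes.

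Total counts ran from 55 to 94.8 M per library (median 75.4 M, where M is 1e6), and 12459 to 17034 genes had a count. All libraries carried the labelled cell type's RNA, with the 12 microglial markers summing to 42000 to 63700 CPM. CPM are counts per 1e6 of a library's total over the tested genes, that total multiplied by edgeR's trimmed mean of M-values factor. The 12 oligodendrocyte markers summed to a median of 5540 CPM in Saline, 8110 in Maintenance and 7520 in Abstinence. The 12 neutrophil markers summed to medians of 134, 89.6 and 66 CPM in that order, with Mpo and Elane at 0 in every Maintenance library and Ly6g, Mpo, Elane and Ltf at 0 in every Abstinence library. The 5 erythrocyte markers summed to 161 to 691 CPM in Saline (median 474), 60 to 503 in Maintenance (median 109) and 81.5 to 766 in Abstinence (median 428). The 9 choroid plexus and ependymal markers had medians of 79, 238 and 253 CPM, and Maintenance 8 held 73200 CPM of them, against at most 285 in Saline and 355 in Abstinence. Maintenance 6 and 7 had the fewest genes with a count, at 12459 and 12740. The 8 endothelial and mural markers summed to medians of 545, 612 and 627 CPM in Saline, Maintenance and Abstinence. Maintenance 6 and 7 held 1560 and 1300 CPM of them, against at most 1090 in Saline and 915 in Abstinence. The part of oligodendrocyte, neutrophil, erythrocyte, choroid plexus or endothelial RNA in the values below was not tested beyond the fits named with them. Fewer cells of a type cannot be told apart from less RNA per cell in these bulk libraries.

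The starts of many of these genes are rich in CpG dinucleotides, the kind of sequence that the CXXC domains of Kmt2a and Kdm2a bind. RefSeq promoter windows (GRCm38.p6) were matched for 35 of the 44 genes, as 51 windows of the 250 bases before a start. Their median GC content was 67.6% against 52.4% over all 32851 windows, and their median number of CpG was 23 against 6. The 32851 windows cover 27025 genes, more than passed the low-count filter used below. A background of expressed genes alone was not computed. Some of the 51 windows overlap each other, and some are exonic, with 250 of 250 bases for Crebbp and Ep300. The GC box GGGCGG, read on both strands, was in 33 of the 51 windows (64.7%) and in 32.7% of all windows. The E-box CACGTG was in 11.8% against 6.02%, the heat shock element GAANNTTC in 3.92% against 6.69%, and the cyclic AMP response element TGACGTCA in 0 of 51 against 1.55%. Of the 10 genes among the 4 of smallest p in a comparison, 8 had a window (12 in all), and the 5 windows with at most 10 annotated exonic bases are printed to show how they differ. Capitals mark a GC box on either strand, an E-box or a heat shock element, and letters run 5′ to 3′ on the gene's strand.
Kmt2a: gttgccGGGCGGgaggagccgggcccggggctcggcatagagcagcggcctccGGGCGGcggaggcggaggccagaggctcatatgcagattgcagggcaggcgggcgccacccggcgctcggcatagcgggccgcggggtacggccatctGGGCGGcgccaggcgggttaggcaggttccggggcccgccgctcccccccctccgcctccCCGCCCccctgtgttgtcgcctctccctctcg
Hdac4: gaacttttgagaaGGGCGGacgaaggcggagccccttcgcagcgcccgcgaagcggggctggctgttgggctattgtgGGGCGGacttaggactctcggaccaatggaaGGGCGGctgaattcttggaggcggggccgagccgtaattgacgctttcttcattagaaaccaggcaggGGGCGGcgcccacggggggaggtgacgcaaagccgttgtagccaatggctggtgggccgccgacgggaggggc
Kat2b: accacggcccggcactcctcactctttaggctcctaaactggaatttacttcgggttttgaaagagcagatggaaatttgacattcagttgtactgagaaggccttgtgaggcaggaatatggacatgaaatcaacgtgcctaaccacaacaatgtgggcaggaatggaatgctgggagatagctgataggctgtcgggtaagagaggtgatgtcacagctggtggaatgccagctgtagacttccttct
Kdm3a: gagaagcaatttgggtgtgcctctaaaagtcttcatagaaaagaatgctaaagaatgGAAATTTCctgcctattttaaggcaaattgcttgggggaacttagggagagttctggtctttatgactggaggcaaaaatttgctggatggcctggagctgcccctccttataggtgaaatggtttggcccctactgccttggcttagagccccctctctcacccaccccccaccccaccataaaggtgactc
Kdm6a: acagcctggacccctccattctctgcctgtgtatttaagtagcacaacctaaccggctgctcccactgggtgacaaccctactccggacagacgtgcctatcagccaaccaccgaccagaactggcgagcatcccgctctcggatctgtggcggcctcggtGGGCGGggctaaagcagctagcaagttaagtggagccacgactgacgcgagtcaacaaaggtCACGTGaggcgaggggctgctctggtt

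The Kmt2a window lies at chr9:44881297-44881539 on the minus strand and was shortened to its 243 exon-free bases, with 4 GC boxes and 29 CpG. The Hdac4 window, at chr1:92180342-92180591 on the minus strand, also holds 4 GC boxes and has 23 CpG. The Kdm6a window, at chrX:18162325-18162574 on the plus strand, holds 1 GC box, 1 E-box and 15 CpG. The Kat2b window, at chr17:53583876-53584125 on the plus strand, and the Kdm3a window, at chr6:71609140-71609389 on the minus strand, do not share this composition, with 48.4% GC each, 5 and 0 CpG and no GC box, and the Kdm3a window holds 1 heat shock element. The Hdac4, Kat2b and Kdm3a windows lie inside the annotated spans of their genes, before inner starts. The Kmt2a and Kdm6a windows lie at the outer start of theirs. Kdm3a has 2 other windows, partly exonic, with 31 and 20 CpG. The other Kat2b window, also partly exonic, has 6 CpG and 40.8% GC. The 2 windows of Hdac9 had 2 and 0 CpG and no GC box. A letter match is a description of the window and says nothing about a factor's binding.

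All 44 genes passed the filter on low counts, as did 16121 of the table's genes in all, and their levels spanned more than 2 orders of magnitude. Levels between genes were compared per length, as mean TMM-scaled CPM (scaled by edgeR's trimmed mean of M-values) per kb of the longest annotated transcript. In Saline the median of the 44 genes was 3.11 CPM per kb, against 3.03 over the 14587 tested genes with a length. Hdac1, the class I deacetylase of the NuRD, Sin3 and CoREST corepressors, was highest at 40.7 ± 2.7 CPM per kb (SD, n = 8). Kat7 and Kat5, the catalytic subunits of the HBO1 and TIP60 complexes, came next at 21.7 ± 2.2 and 20.1 ± 1.8 CPM per kb, and differed by less than either SD. The lowest were Hdac7 at 0.0805 ± 0.10, Kmt2b at 0.259 ± 0.064 and Kmt2a at 0.719 ± 0.14 CPM per kb. Close relatives lay far apart. Crebbp, at 15.5 CPM per kb, stood well above its paralogue Ep300 at 2.12, Ezh1 at 10.5 above Ezh2 at 1.15, and Hdac1 above Hdac2 at 2.21, with no SD bars overlapping in these pairs.

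**Figure D1:**
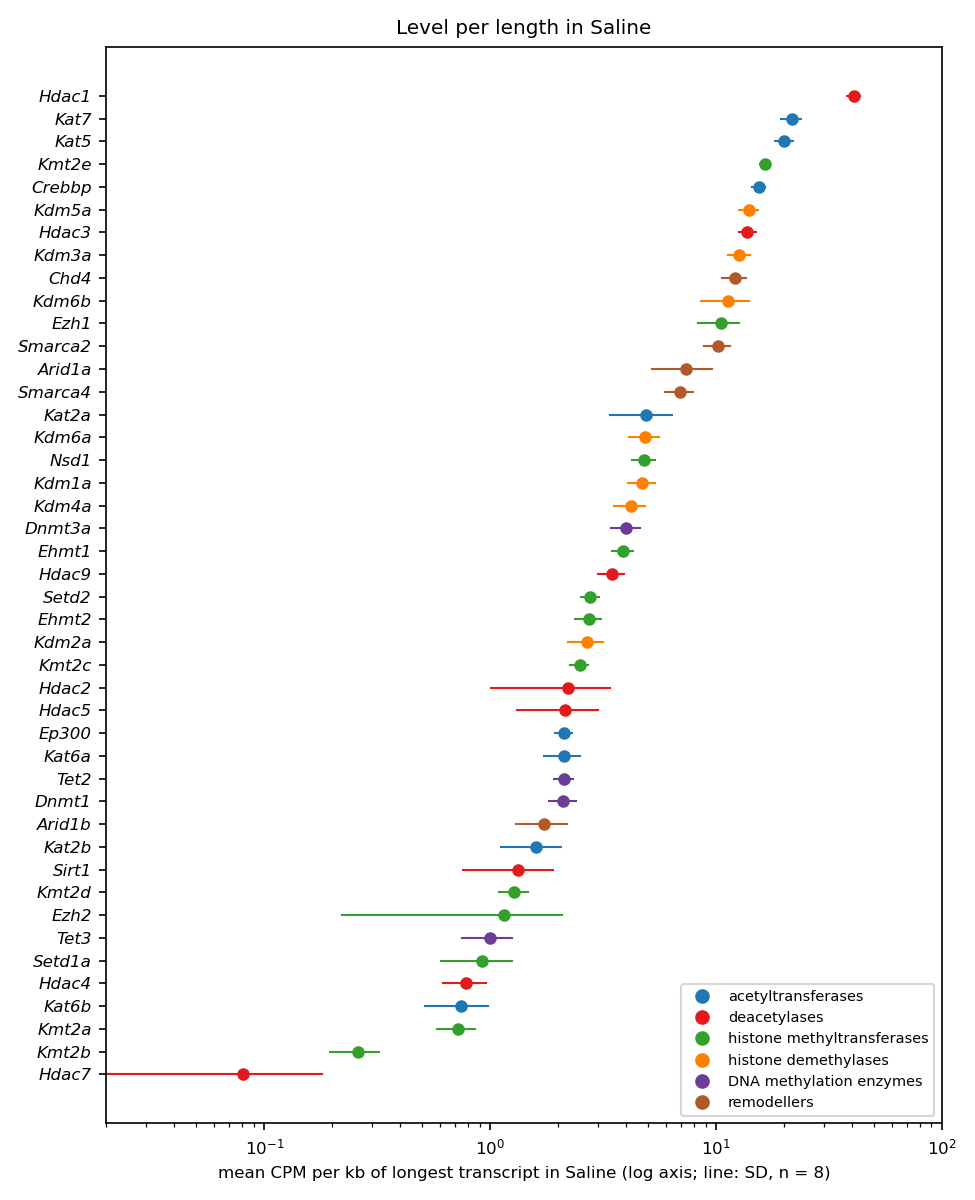
Mean level of each of the 44 genes in Saline, as CPM per kb of the longest transcript on a log axis, ordered from highest to lowest and coloured by role, with lines for the SD over 8 libraries. Hdac1 leads at 40.7 CPM per kb and Hdac7, at 0.0805, is the lowest.

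Crebbp was the 1 gene of the 44 that passed the test in any comparison, lower in Abstinence than in Maintenance. edgeR's quasi-likelihood test with Benjamini-Hochberg adjustment over all 16121 genes called 0 of the 44 between Maintenance and Saline, where 0.707% of all genes were called (0.335% higher and 0.372% lower). It called 0 between Abstinence and Saline, where the background was 0.0186% (0.0124% higher and 0.0062% lower), and 1 between Abstinence and Maintenance, where it was 0.949% (0.552% lower and 0.397% higher). DESeq2 called 1, 0 and 1 of the 44 in these comparisons, Crebbp both times, beside 3.43%, 0.223% and 4.44% of its genes. limma voom called 1, 0 and 2, beside 2.56%, 1.29% and 2.11%. edgeR with a 1 CPM filter called 1, 0 and 1, beside 1.39%, 0.0546% and 2.2%. At an unadjusted p under 0.05, 7 genes were higher and 0 lower in Maintenance than in Saline, against backgrounds of 6.06% and 5.73% of genes (11.8% in either direction). Between Abstinence and Maintenance 3 were higher and 6 lower (5.11% and 5.86% of genes, 11% together), and between Abstinence and Saline 3 were higher and 1 lower (2.15% and 2.23%, 4.39% together). Maintenance against Saline and Abstinence against Maintenance share the Maintenance libraries, so a high Maintenance value moves both.

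The median log2 fold change of the 44 genes was 0.10 in Maintenance against Saline, with 30 of 44 positive, beside a median of 0.01 and 50.6% positive over all genes tested. It was 0.0601 without Maintenance 2 and 0.0651 without Maintenance 7. It was -0.10 in Abstinence against Maintenance, with 14 of 44 positive (50.8% of all genes), -0.0628 without Maintenance 7 and -0.15 without Maintenance 4. It was 0.01 in Abstinence against Saline, with 24 of 44 positive (51.3% of all genes). By role, 6 of 8 acetyltransferases, 9 of 12 histone methyltransferases and 4 of 5 remodellers had positive values in Maintenance against Saline, with medians of 0.10, 0.11 and 0.24. The deacetylases were even, with 4 of 8 positive and a median of 0.03. The demethylases had 4 of 7 positive (median 0.10) and the DNA methylation enzymes 3 of 4 (median 0.08).

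**Figure D2:**
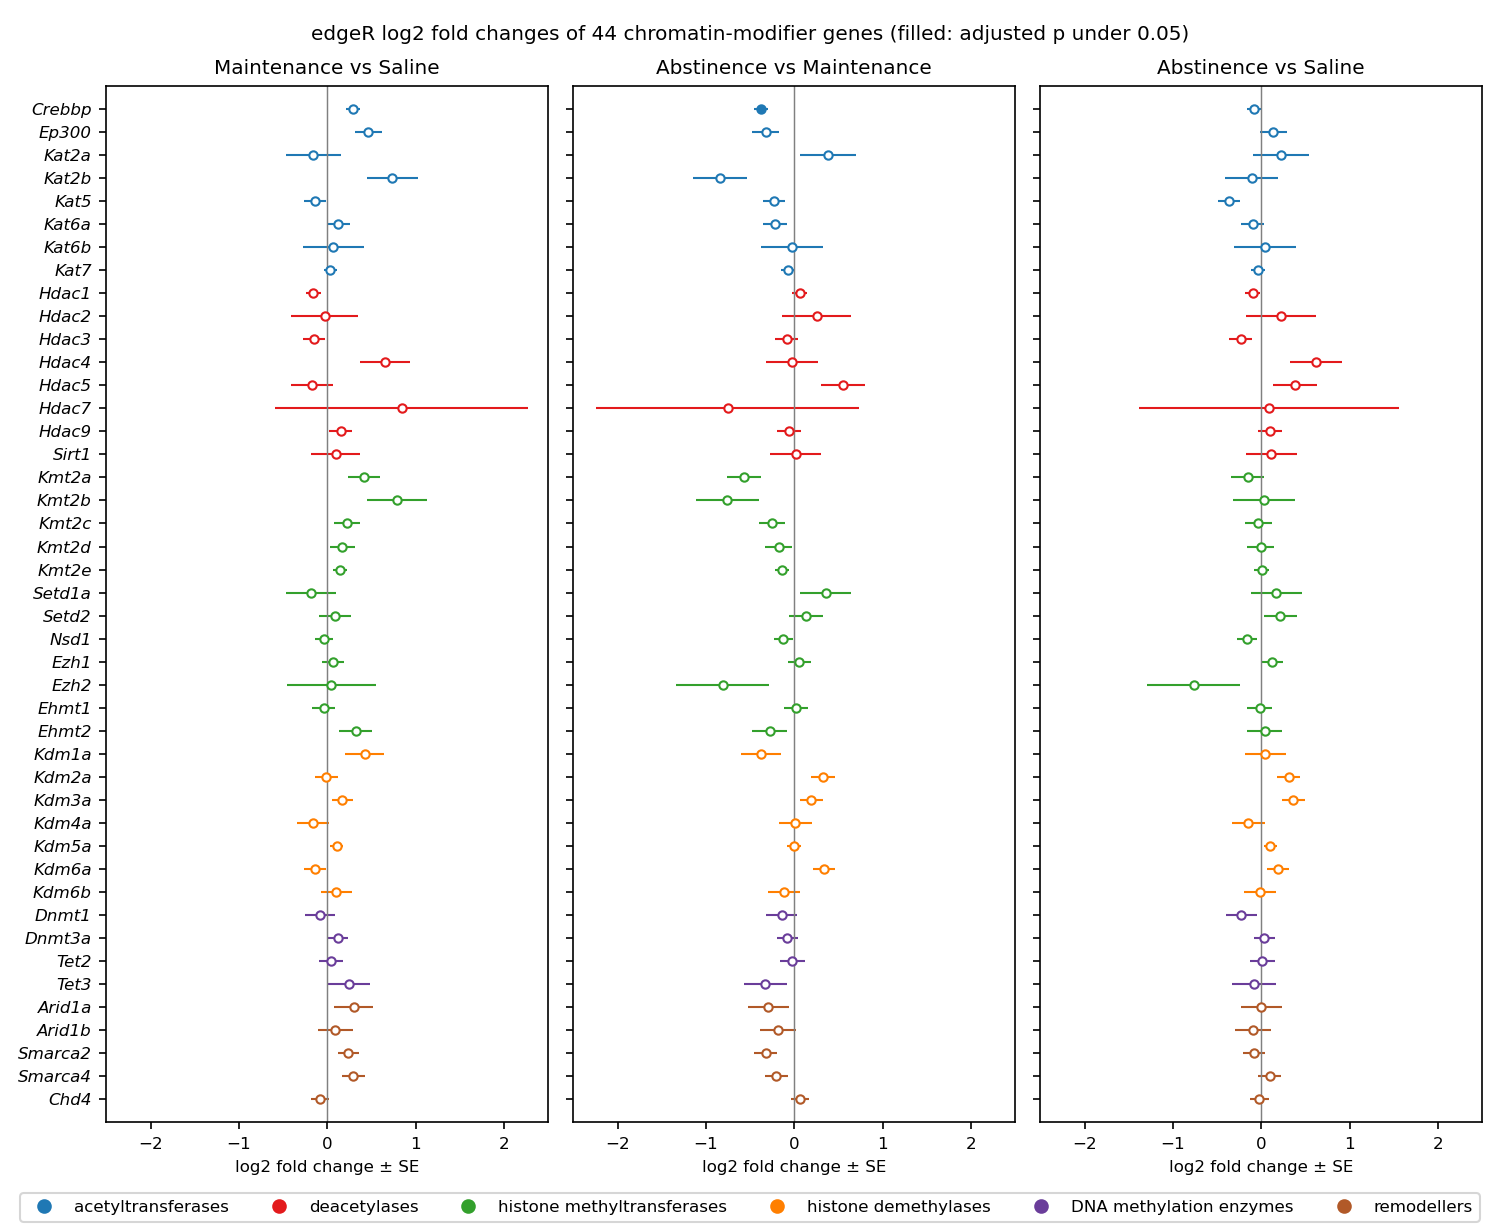
edgeR log2 fold change with its SE for each of the 44 genes in the 3 comparisons, coloured by role, with filled circles for an adjusted p under 0.05. The 1 filled circle is Crebbp in Abstinence against Maintenance, and Hdac7 has the widest SE.

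Among the acetyltransferases, Crebbp encodes CBP, the coactivator that CREB and many other factors recruit and that acetylates histones at enhancers. The gene lies at chr16:4081328-4213997 on the minus strand. Its level in Saline ran from 155 to 183 CPM (median 166), in Maintenance from 174 to 253 (median 201) and in Abstinence from 119 to 180 (median 166). Of the 8 Maintenance libraries 7 lay above the highest Saline library, and 5 of the 7 Abstinence libraries lay below the lowest Maintenance library, so the ranges overlapped narrowly. Against Maintenance, Abstinence was lower by a log2 fold change of -0.37 ± 0.08 (SE; adjusted p = 0.0197, edgeR), with 7 of 7 libraries under the Maintenance median. Maintenance against Saline gave 0.29 ± 0.08 (adjusted p = 0.0784, edgeR), which missed the threshold, with 8 of 8 libraries over the Saline median. Abstinence against Saline gave -0.08 ± 0.08 (adjusted p = 0.999, edgeR).

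The Crebbp difference between Abstinence and Maintenance passed without any 1 library, with adjusted p from 0.00565 to 0.0492 by edgeR, and without Maintenance 6, 7 and 8 together (adjusted p = 0.018). It failed when only the 2 compared groups were fitted (adjusted p = 0.0886). Against Saline, the higher Maintenance level passed by DESeq2 (adjusted p = 0.0114), by limma voom (adjusted p = 0.0394), with a 1 CPM filter (adjusted p = 0.0445), and without Maintenance 8 (adjusted p = 0.0421) or Abstinence 2 (adjusted p = 0.0433). It missed the threshold in the other 21 fits that left out 1 library and in 9 of 12 other settings. Among these edgeR fits were oligodendrocyte and neutrophil marker means as covariates (adjusted p = 0.323) and the 17 libraries of a second deposited table (adjusted p = 0.172). That table lacks Saline 5, 6 and 8 and Maintenance 6, 7 and 8. In Abstinence against Maintenance it compares the same libraries as the fit without Maintenance 6, 7 and 8. Those settings are not separate checks there. No other marker list entered the covariate fit. Abstinence against Saline, -0.08, was -0.02 without Abstinence 2 and -0.13 with transcript length as a covariate (the difference between long and short transcripts in each library). The erythrocyte markers also had their lowest median in Maintenance, at 109 CPM against 474 in Saline and 428 in Abstinence, with overlapping ranges. Their part in the Crebbp values was not tested.

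Ep300 encodes p300, the paralogue of CBP with much the same substrates. Its libraries held 17.9 to 22.3 CPM in Saline (median 20.6), 17.8 to 48 in Maintenance (median 25.5) and 18.6 to 26.2 in Abstinence (median 22.8). The highest value, 48 CPM, came from Maintenance 7. The log2 fold change was 0.46 ± 0.15 in Maintenance against Saline (adjusted p = 0.159, edgeR) and 0.31 without Maintenance 7, and it was -0.32 ± 0.16 in Abstinence against Maintenance (adjusted p = 0.454, edgeR) and -0.18 without Maintenance 7. By limma voom the 2 values were 0.29 and -0.12.

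Kat2b encodes PCAF, an acetyltransferase of SAGA-type complexes. It ran from 3.57 to 10.4 CPM in Saline (median 7.75), from 5.35 to 21.8 in Maintenance (median 11.4) and from 4.53 to 14.2 in Abstinence (median 4.90). Of the 7 Abstinence libraries 5 lay below every Maintenance library, and the highest, Abstinence 5, lay within the Maintenance range. The log2 fold changes were 0.74 ± 0.29 in Maintenance against Saline (adjusted p = 0.274, edgeR) and -0.85 ± 0.31 in Abstinence against Maintenance (adjusted p = 0.221, edgeR). They were 0.15 and -0.48 with the second table's libraries, and 0.36 and -0.48 without Maintenance 6, 7 and 8. Both -0.48 values compare the same Maintenance and Abstinence libraries. Maintenance against Saline gave 0.29 by limma voom and 0.43 with the length covariate.

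Kat5, which encodes TIP60, an acetyltransferase also known for its part in the DNA damage response, had the smallest p of the 44 in Abstinence against Saline. It held 37.7 to 49.6 CPM in Saline (median 45.2), 30.6 to 49.8 in Maintenance (median 41.6) and 20.2 to 46.5 in Abstinence (median 36.9), and 5 of the 7 Abstinence libraries lay below every Saline library. The log2 fold change was -0.37 ± 0.13 (adjusted p = 0.705, edgeR). Kat5 shares 426 exonic bases with Rnaseh2c on the other strand, and since no source used here gives the strand of counting, reads of the 2 genes there cannot be told apart. Rnaseh2c itself gave -0.02 ± 0.10 (adjusted p = 0.999, edgeR).

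Of the deacetylases, the class I enzymes Hdac1, Hdac2 and Hdac3 act mainly in nuclear corepressors. Hdac1 held 73.1 to 89.4 CPM in Saline (median 82.8), 66.9 to 96.9 in Maintenance (median 71.5) and 64.4 to 92 in Abstinence (median 78.5). Hdac3, the catalytic subunit of the NCoR and SMRT corepressors, held 44.3 to 57.3 (median 48.8), 31.5 to 73.5 (median 40.6) and 32.9 to 46.1 CPM (median 43.4) in the same order. For both genes 5 of 8 Maintenance libraries lay below the lowest Saline library while 1 lay above the highest. That 1 was Maintenance 5 for Hdac1. For Hdac3 it was Maintenance 8, the library with 73200 CPM of choroid plexus and ependymal markers, whose part in the value was not tested. Adjusted p by edgeR for Maintenance against Saline was 0.464 for Hdac1 and 0.734 for Hdac3. Hdac2, the close relative of Hdac1, was scattered, with 0.554 to 11.7 CPM in Saline (median 8.18), 4.31 to 12.7 in Maintenance (median 5.93) and 5.67 to 13.3 in Abstinence (median 7.38). Sirt1, a deacetylase that uses NAD, held medians of 6.03, 5.81 and 6.46 CPM with overlapping ranges of 2.55 to 10.8, 3.66 to 10.3 and 4.31 to 9.22.

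The class IIa enzymes shuttle between cytoplasm and nucleus with signalling. Hdac4 held 3.86 to 8.57 CPM in Saline (median 6.27), 2.35 to 15 in Maintenance (median 10.8) and 5.62 to 15.8 in Abstinence (median 10). In Maintenance 6 of 8 libraries and in Abstinence 4 of 7 exceeded the highest Saline library, but Maintenance 4 was the lowest of all 23. The log2 fold changes against Saline were 0.65 ± 0.28 in Maintenance (adjusted p = 0.342, edgeR) and 0.62 ± 0.29 in Abstinence (adjusted p = 0.999, edgeR). The Maintenance value was 0.26 without Maintenance 6, 7 and 8, 0.38 with the length covariate and 0.43 with the second table's libraries. Hdac5 ran from 5.17 to 18.2 CPM in Saline, 5.50 to 12.1 in Maintenance and 7.21 to 23.6 in Abstinence, where 5 of 7 libraries exceeded every Maintenance library (log2 fold change 0.55 ± 0.25, adjusted p = 0.391, edgeR). Hdac7 had 950 counts over all libraries, with 0 in some of each group. Its neighbour Slc48a1 on the other strand had 110894, so the Hdac7 values are uncertain.

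Among the histone methyltransferases, the KMT2 family methylates histone H3 at promoters and enhancers. Kmt2b encodes a methyltransferase closely related to that of Kmt2a, and it was the 1 gene of the 44 whose libraries did not overlap between 2 groups. It held 1.37 to 2.85 CPM in Saline (median 2.31), 2.92 to 4.71 in Maintenance (median 3.61) and 1.17 to 3.51 in Abstinence (median 2.09). All 8 Maintenance libraries lay above all 8 Saline libraries, a separation seen in 0.416% of genes tested, and 0 of the 44 genes separated in the other 2 comparisons (0.198% of genes for Abstinence against Saline and 0.403% against Maintenance). For Kmt2b 5 of 7 Abstinence libraries lay below every Maintenance library. The log2 fold changes were 0.79 ± 0.34 (adjusted p = 0.339, edgeR) and -0.76 ± 0.35 for Abstinence against Maintenance (adjusted p = 0.419, edgeR). The gene's level is low, with 85 to 203 counts in the lowest library of each group.

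Kmt2a, which encodes the MLL protein, lies at chr9:44803355-44881296, just downstream of the promoter printed above. It held 8.63 to 15.5 CPM in Saline (median 11.7), 9.03 to 19.1 in Maintenance (median 16.5) and 7.98 to 16.6 in Abstinence (median 9.73). In Maintenance 5 of 8 libraries exceeded every Saline library, and 6 of 7 Abstinence libraries were under the Maintenance median. The log2 fold changes were 0.41 ± 0.18 in Maintenance against Saline (adjusted p = 0.353, edgeR) and -0.57 ± 0.19 in Abstinence against Maintenance (adjusted p = 0.169, edgeR). The latter passed by limma voom alone (adjusted p = 0.0287).

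Ezh2, the Polycomb methyltransferase, was low and scattered, with 1.22 to 9.18 CPM in Saline (median 2.26), 0.488 to 6.22 in Maintenance (median 3.33) and 0.645 to 3.47 in Abstinence (median 2.01). Its smallest adjusted p by edgeR over the 3 comparisons was 0.655. Kmt2c, Kmt2d and Kmt2e, which share a name with Kmt2a, had positive values in Maintenance against Saline. Their values in Abstinence against Maintenance were negative, and none passed. Kmt2e shares 972 exonic bases with Srpk2 on the other strand. Srpk2 rose in Maintenance (log2 fold change 0.42 ± 0.10, adjusted p = 0.0496, edgeR), and reads of the 2 genes there cannot be told apart.

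**Figure D3:**
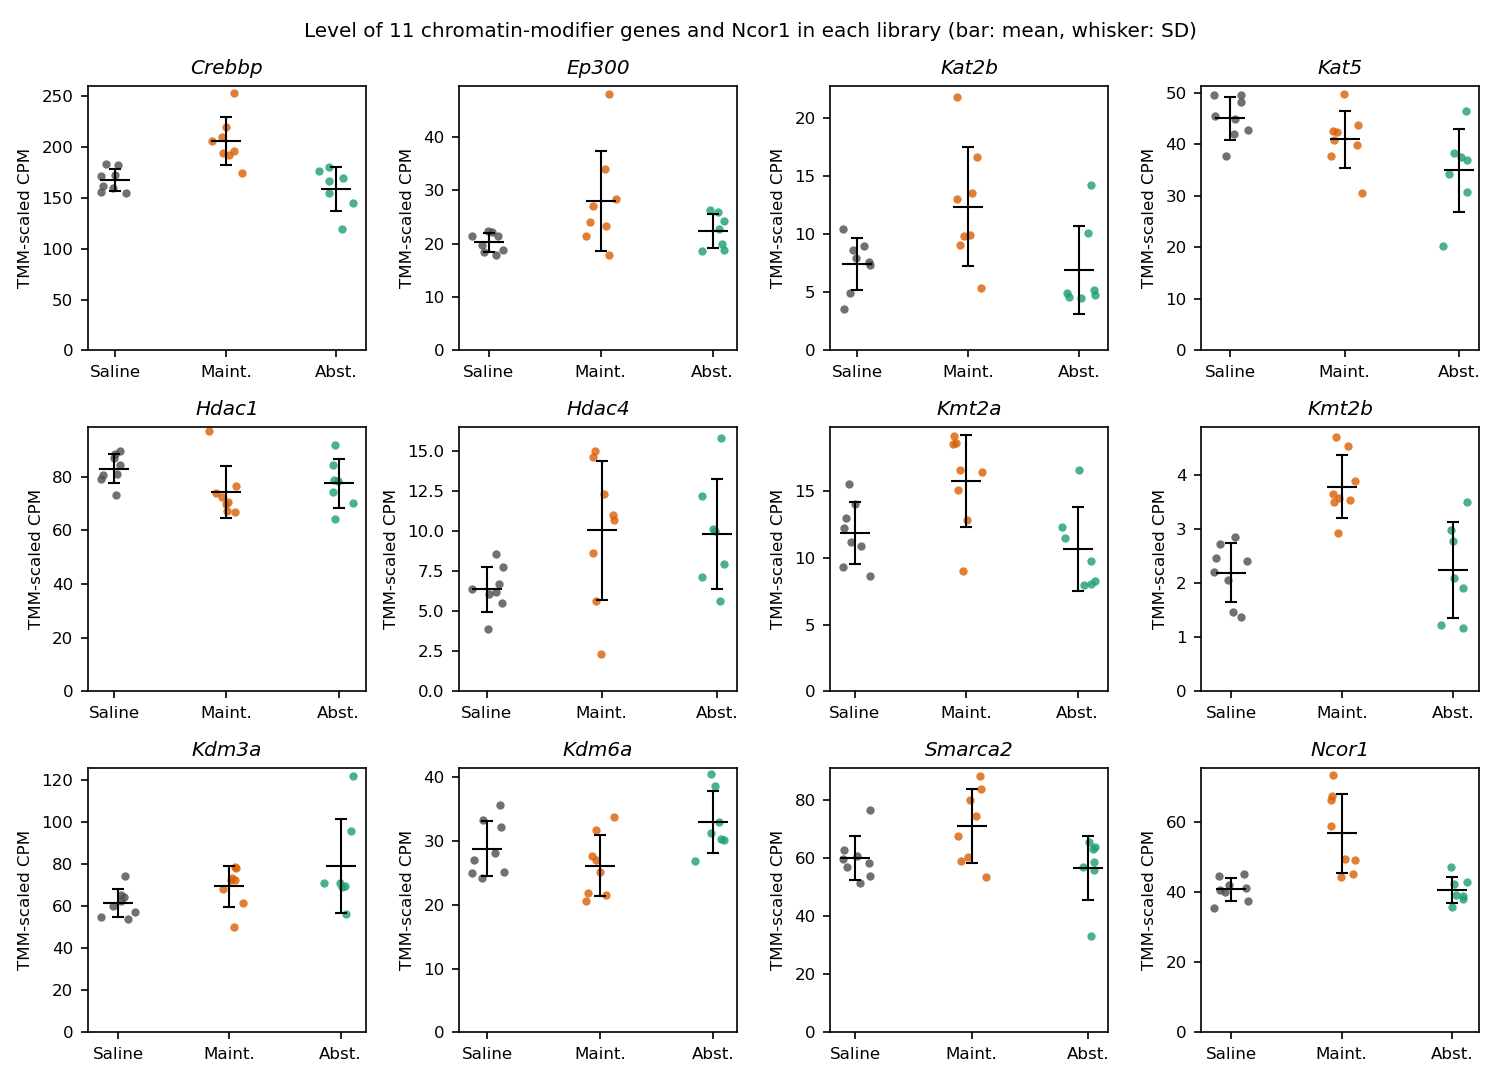
TMM-scaled CPM of 11 of the 44 genes and of Ncor1 in each library, with a bar for the group mean and whiskers for the SD (Saline n = 8, Maintenance n = 8, Abstinence n = 7). Crebbp, Kmt2b and Ncor1 have most Maintenance libraries above the other groups, and the highest Ep300 point, at 48 CPM, is Maintenance 7.

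Of the 7 histone demethylases, 5 had positive values in Abstinence against Saline and 4 in Abstinence against Maintenance, and none passed. Kdm3a, which removes methyl groups from a silencing mark, held 54.1 to 74.2 CPM in Saline (median 61.2), 50 to 78.8 in Maintenance (median 72.4) and 56.1 to 122 in Abstinence (median 70.8). Its log2 fold change in Abstinence against Saline was 0.37 ± 0.13 (adjusted p = 0.742, edgeR) and 0.23 without Abstinence 5, the library at 122 CPM. Kdm2a, a demethylase that binds CpG islands, held 18 to 27.8 CPM (median 23.2), 19 to 28.6 (median 22.9) and 19.7 to 36.1 (median 28.6) in the same order. In Abstinence 4 of 7 libraries exceeded every library of either other group, with log2 fold changes of 0.31 ± 0.13 against Saline (adjusted p = 0.999, edgeR) and 0.32 ± 0.13 against Maintenance (adjusted p = 0.32, edgeR). The value against Saline was 0.18 by limma voom and 0.19 with the second table's libraries.

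Kdm6a encodes UTX, which removes the Polycomb mark and lies on the X chromosome at chrX:18162575-18279936. Its libraries ran from 24.2 to 35.6 CPM in Saline (median 27.6), from 20.6 to 33.7 in Maintenance (median 26.1) and from 26.9 to 40.4 in Abstinence (median 31.2). All 7 Abstinence libraries were over the Maintenance median (log2 fold change 0.33 ± 0.13, adjusted p = 0.253, edgeR). The value was 0.22 without Maintenance 6, 7 and 8 and 0.21 with the second table's libraries, settings that compare the same libraries. Kdm6b, which encodes the inducible relative JMJD3 known from macrophage activation, varied within every group, from 53.4 to 104 CPM in Saline, 50 to 117 in Maintenance and 45.9 to 97.1 in Abstinence (medians 72.1, 75.1 and 65.4). Its smallest adjusted p by edgeR was 0.912.

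None of the 4 enzymes of DNA methylation passed, and their group ranges overlapped. Dnmt1, the maintenance methyltransferase, had medians of 12.3, 13.4 and 11.2 CPM in Saline, Maintenance and Abstinence, with all 7 Abstinence libraries under the Maintenance median. Its ranges were 9.69 to 15.1, 8.28 to 14.4 and 7.41 to 13.3 CPM, and its means were 12.4, 11.7 and 10.6. In Maintenance 3 of 8 libraries lay below every Saline library and 0 above. Dnmt3a, the de novo methyltransferase, had medians of 37.5, 44 and 41.9 CPM in the same order, with ranges of 33.5 to 49.7, 32.6 to 50 and 31.9 to 45.9. Tet2, which oxidises methylcytosine, had medians of 19.1, 20.5 and 21.3 CPM, with ranges of 17 to 22.9, 14.1 to 26 and 14.1 to 25.3. Tet3, another TET enzyme, was more scattered, from 8.87 to 17.5 CPM in Saline, 8.28 to 25.6 in Maintenance and 4.68 to 14 in Abstinence, with Saline 7 and Maintenance 7 far above the rest of their groups. The smallest adjusted p by edgeR of these 4 genes over the 3 comparisons was 0.748.

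Of the remodellers, Smarca2 and Smarca4 encode BRM and BRG1, the alternative ATPases of SWI/SNF. Smarca2 held 51.5 to 76.7 CPM in Saline (median 59.1), 53.6 to 88.4 in Maintenance (median 71.1) and 33.1 to 65.5 in Abstinence (median 58.8), with all 7 Abstinence libraries under the Maintenance median (log2 fold change -0.32 ± 0.13, adjusted p = 0.295, edgeR). That value was -0.16 without Maintenance 6, 7 and 8 (adjusted p = 0.808, edgeR), with the second table's libraries and by limma voom. The setting without Maintenance 6, 7 and 8 and that of the second table compare the same libraries. Smarca4 held 36.6 to 54.2 CPM in Saline (median 45.9), 37.7 to 67.9 in Maintenance (median 55.8) and 38.4 to 65 in Abstinence (median 44.2). In Maintenance 5 of 8 libraries exceeded every Saline library (log2 fold change 0.30 ± 0.13, adjusted p = 0.342, edgeR).

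Other subunits and enzymes of the same complexes were read from 9 lists, with 163 tested genes. Of these 1 passed in Maintenance against Saline, 0 in Abstinence against Saline and 1 in Abstinence against Maintenance. The shares called over all 16121 genes were 0.707%, 0.0186% and 0.949% in that order. Both calls among the 163 were Ncor1, the corepressor that carries Hdac3. It held 35.6 to 45.1 CPM in Saline (median 40.9), 44.3 to 73.5 in Maintenance (median 54.1) and 35.8 to 47.2 in Abstinence (median 39.3). In Maintenance 7 of 8 libraries lay above the highest Saline library. Ncor1 rose in Maintenance against Saline by 0.48 ± 0.10 on the log2 scale (adjusted p = 0.0261, edgeR). It was lower in Abstinence than in Maintenance, with a log2 fold change of -0.48 ± 0.11 (adjusted p = 0.0225, edgeR). The call against Saline was lost when only the compared groups were fitted (0.48 ± 0.11, adjusted p = 0.0672), with marker levels as covariates (0.40 ± 0.12, adjusted p = 0.243) and without any 1 of Saline 1, 3, 4 and 6 and Maintenance 1 and 2 (adjusted p up to 0.0554). The call against Maintenance was lost with only the compared groups fitted (adjusted p = 0.0981) and without Abstinence 2 (adjusted p = 0.0564) or Abstinence 3 (adjusted p = 0.0624).

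In the 8 lists where none passed, the genes of smallest p included 2 near the threshold in Abstinence against Maintenance. Trrap, the scaffold of the TIP60 and SAGA complexes, gave -0.72 ± 0.18 (adjusted p = 0.0545, edgeR), and Bptf, the reader subunit of NURF, gave -0.47 ± 0.12 (adjusted p = 0.0556, edgeR), each with 7 of 7 libraries under the Maintenance median. Trrap passed in 4 of the 23 fits that left out 1 library and in 5 of 12 other settings, and Bptf in 3 of 23 and 2 of 12. Rbbp5, a core subunit of the KMT2 complexes, gave 0.73 ± 0.17 in Abstinence against Saline (adjusted p = 0.218, edgeR), which passed by DESeq2 (adjusted p = 0.0304) and limma voom (adjusted p = 0.0236). In Maintenance against Saline the leading genes were Kat8 (0.48, adjusted p = 0.304), Smyd2 (0.77, adjusted p = 0.213), Kdm4b (-0.69, adjusted p = 0.246) and Brd3 (0.27, adjusted p = 0.18), by edgeR. Tdg led the DNA methylation partners in Abstinence against Saline (-0.26, adjusted p = 0.999, edgeR). Over all 9 lists, the median log2 fold change of the 163 genes was 0.07 in Maintenance against Saline, with 97 positive, and -0.08 in Abstinence against Maintenance, with 63 positive.

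Many of these transcripts are long, and in the 2 comparisons with Maintenance long transcripts as a class had median fold changes of the same sign. Only genes whose mean log2 CPM reached 2 were compared here. The 484 other genes with a transcript over 8000 bases had a median log2 fold change of 0.12 in Maintenance against Saline, with 68.8% positive. The 16 chromatin genes of that length had a median of 0.15, with 14 positive. Other genes of up to 1500 bases had a median of -0.06, with 39.4% positive, and none of the 44 is that short. In Abstinence against Maintenance the medians over 8000 bases were -0.12 for other genes and -0.18 for the 16. Across genes, which are not independent replicates, Spearman's rho between fold change and length in Maintenance against Saline was 0.36 over 41 of the 44 genes and 0.12 over 9065 others. In Abstinence against Maintenance it was -0.29 and -0.04. In Abstinence against Saline the medians over 8000 bases were 0.01 for other genes and 0.00 for the 16, and rho was -0.07 over the 41 and 0.10 over the others. Other genes of up to 1500 bases had a median of -0.06 in that comparison as well, with 32.7% positive. Between Abstinence and Maintenance their median was -0.003, with 49.1% positive.

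**Figure D4:**
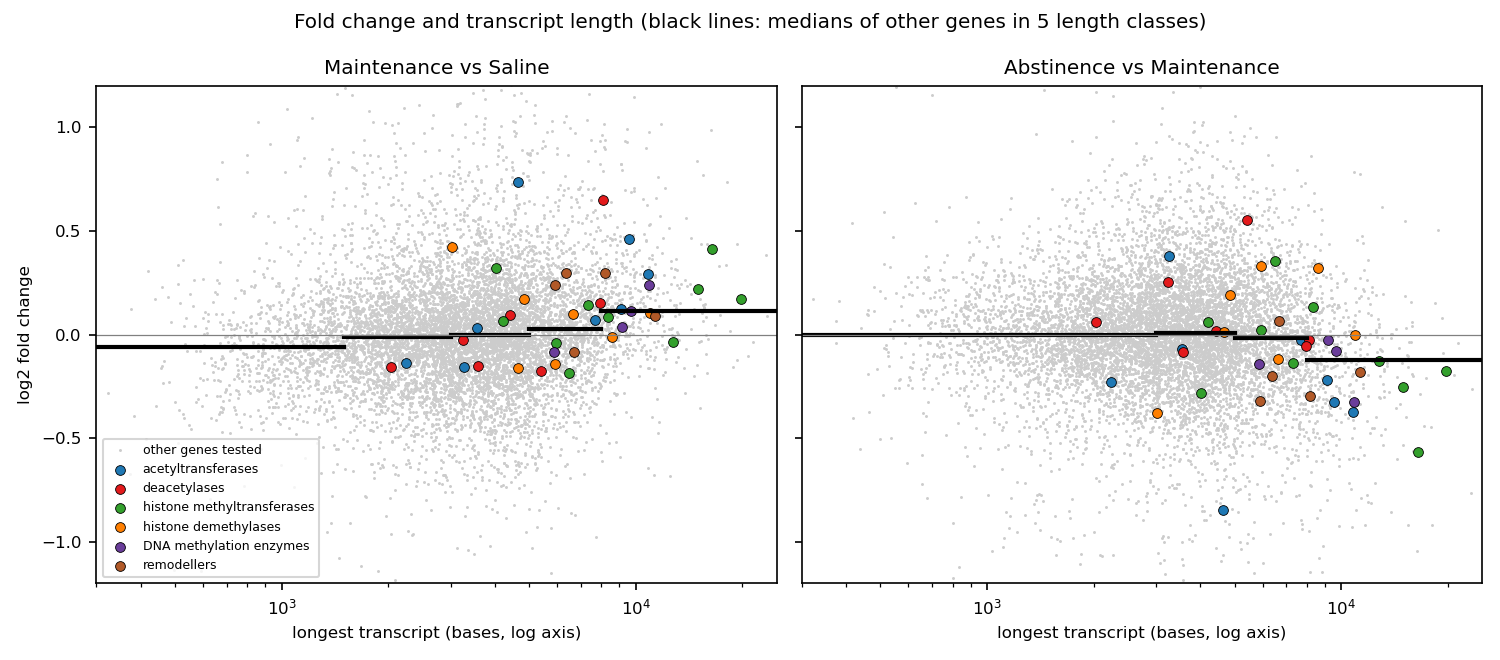
log2 fold change against the longest transcript in bases, on a log axis, for the chromatin genes (coloured) and all other tested genes whose mean log2 CPM reached 2 (grey), with black lines at the medians of the other genes in 5 length classes. Points beyond a log2 fold change of 1.2 fall outside the plot, and the median line rises to 0.12 for transcripts over 8000 bases on the left and drops to -0.12 on the right.

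The libraries differed in this respect within every group. The difference between long and short transcripts, computed from the other genes as deviations from the Saline mean, ran from -0.09 to 0.15 on the log2 scale in Saline, from 0.03 to 0.63 in Maintenance and from -0.21 to 0.39 in Abstinence. Maintenance 7 had the highest value, 0.63, and also the highest median of the 44 genes, 0.34 above the Saline mean. Abstinence 2 had the lowest of both, -0.21 and -0.10. Between these ends the order was looser. Abstinence 1 had the next highest length difference, 0.39, with a median of 0.10 for the 44 genes, while Maintenance 1 had 0.10 and 0.12. Saline 5 had 0.15 with a median near 0, and Maintenance 4 and 5 had 0.08 and 0.07 with medians of -0.03 and -0.01. With this difference as a covariate, a fit chosen after seeing the data, the median log2 fold change of the 44 genes in Maintenance against Saline was 0.02, and that of Crebbp was 0.16 ± 0.06 (adjusted p = 0.337, edgeR). The lower Crebbp level in Abstinence than in Maintenance still passed in that fit (-0.29 ± 0.06, adjusted p = 0.0219, edgeR), while Ncor1 missed the threshold at 0.39 ± 0.11 in Maintenance against Saline (adjusted p = 0.115, edgeR) and -0.43 ± 0.11 in Abstinence against Maintenance (adjusted p = 0.0566, edgeR).

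**Figure D5:**
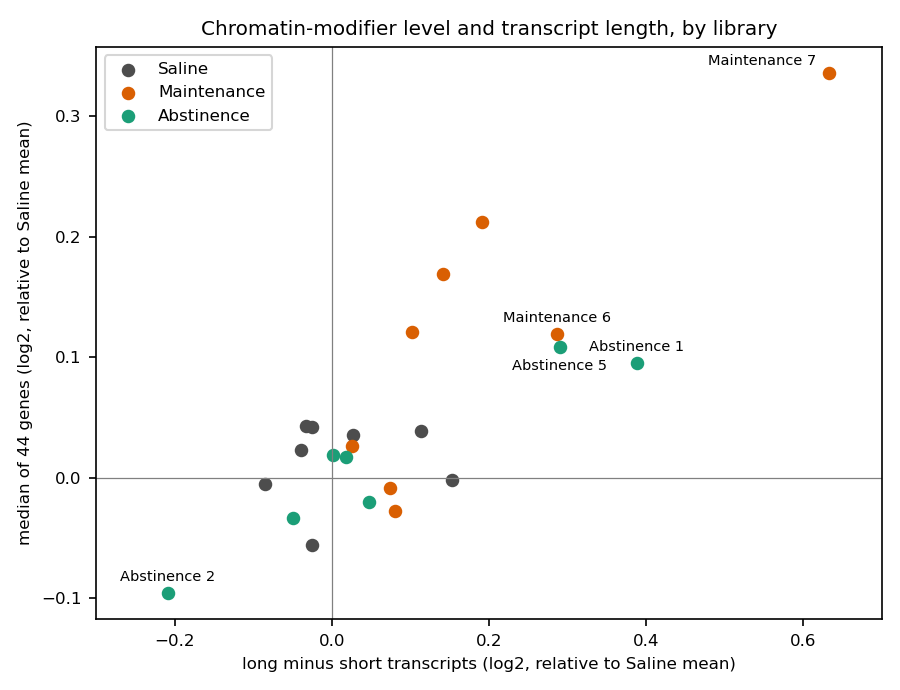
Each point is 1 library, with the difference between long and short transcripts of other genes on the horizontal axis and the median deviation of the 44 chromatin genes on the vertical axis, both on the log2 scale relative to the Saline mean. Maintenance 7 stands at 0.63 and 0.34, and Abstinence 2 at -0.21 and -0.10.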

How the data were processed

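Striatal microglial RNA was sequenced as 23 libraries with a low-input kit, per the labels' protocols. The submitters' processing notes name STAR 2.7.10a, DESeq2 1.38.3, StringTie 2.1.5, cutadapt 1.18 and Trim Galore 0.6.7 with mm10 (GRCm38), without order or settings, and the strand of counting is not given in the sources used here. The deposited tables hold whole-number counts per gene. The first (35976 genes, 23 libraries) was used. The second, called normalized, held the same counts for 17 libraries (0 of 611592 values differed). It lacks Saline 5, 6 and 8 and Maintenance 6, 7 and 8.

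Genes were kept with edgeR's filterByExpr (minimum count 10, minimum total 15), and 16121 entered 1 quasi-likelihood fit of all libraries (edgeR 4.0.16, TMM, robust, R 4.3.3), adjusted by Benjamini-Hochberg and passed at 0.05. The common biological coefficient of variation was 0.831. log2 CPM used a prior count of 2. Lengths and positions came from GENCODE M21 (GRCm38), and overlapping genes were listed from it. Per-length levels use the longest transcript.

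The 44 genes, the partner and marker lists and the tests were chosen with earlier results of these data known. Values by library are given for genes that passed, the 4 of smallest p per comparison, the 1 of smallest p per role, and Crebbp, Ep300, Hdac1, Hdac2, Hdac3, Ezh2, Kdm6b, Sirt1, Dnmt3a and Tet2, plus the 3 highest and 3 lowest per length. Of partner lists, genes that passed or led by p are named (163 of 164 tested, 8 matched by a synonym). Fold changes of the 44 genes are printed where the unadjusted p was under 0.05, and for Crebbp throughout, a choice made after seeing the data that also brought in Hdac5 and Smarca4. Alternatives were upper-quartile or RLE factors, a 1 CPM filter or none, DESeq2 1.42.0, limma voom (3.58.1), the replicate block, only the compared groups, the libraries of the second table and each library left out, with 3 more added after seeing the data.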

Additional observations from a re-analysis of the deposited data

Results flagged for a closer look

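Of 69 groups checked (23 genes in 3 groups), 8 had 1 library farther from the rest than Dixon's 95% limit for its group size, and chance gives about 1 in 20. For Tet3, Saline 7 stood at 17.5 CPM with the next Saline library at 11.2, and Maintenance 7 at 25.6 with the next at 13.4. For Smarca2, Saline 7 stood at 76.7 CPM above the next at 62.8, and Abstinence 5 at 33.1 below the next at 56. Hdac1 was at 96.9 CPM in Maintenance 5 (next 76.6), Hdac3 at 73.5 in Maintenance 8 (next 50.1), Ezh2 at 9.18 in Saline 5 (next 4.16) and Hdac5 at 5.50 in Maintenance 6, below the next at 9.52.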

How the results depend on the processing

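Over 36 settings, the reported one included, the 7, 4 and 9 chromatin genes with an unadjusted p under 0.05 in Maintenance against Saline, Abstinence against Saline and Abstinence against Maintenance kept their sign, while 19, 21 and 17 of the 44 changed sign in at least 1 setting. Where 3 counts are given they follow that order of comparisons. Genes called were 349, 36 and 452 by DESeq2, 413, 208 and 340 by limma voom, 57, 5 and 64 with only the compared groups, and 176, 56 and 238 with the second table's libraries. The replicate block gave 69 genes in the first comparison. Same-numbered libraries correlated at -0.12 to 0.09 over all genes tested, which gave no sign that the numbers pair them. A shared batch that moves few genes could escape this check, and the labels do not say what the numbers mark. The block changed no call of the 44 genes. The 1 CPM filter called 153, 6 and 242. Marker covariates gave 40 and 0 in the first and second, the length covariate 55 in the first, and leaving out Maintenance 6, 7 and 8 gave 15 in the second.

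Of the 44 genes, 1 (Crebbp) was called in the first comparison with the 1 CPM filter (1.39% of genes), DESeq2 (3.43%) and limma voom (2.56%). In the third, 2 were called by limma voom and 0 with only the compared groups. With the length covariate Kat8 and Brd3 gave 0.29 and 0.15 in the first comparison, Smyd2 0.46 by limma voom, and Tdg in the second -0.15 with the second table's libraries and -0.17 with marker covariates. Partner genes called in the first were 2 by DESeq2 and by limma voom, and 0 with only the compared groups or either covariate fit. In the second they were 1 by DESeq2 and 3 by limma voom. In the third they were 2 with RLE factors or the second table's libraries and 4 with the 1 CPM filter or limma voom. They were 7 by DESeq2, 3 without Maintenance 6, 7 and 8, and 0 with only the compared groups or the length covariate. The called shares of all genes were 3.43%, 0.223% and 4.44% by DESeq2 and 2.56%, 1.29% and 2.11% by limma voom. In the third, the 1 CPM filter called 2.2%, RLE factors called 190 genes, and leaving out Maintenance 6, 7 and 8 called 199. The median log2 fold change of the 44 was 0.0229 in the first and -0.0421 in the second with the length covariate. By limma voom it was -0.0376 in the second and -0.136 in the third, and in the third -0.0627 with the second table's libraries and -0.0565 without Maintenance 6, 7 and 8. The latter settings compare the same libraries in the third comparison.

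With each library left out, genes called ran from 42 to 197, 1 to 15 and 89 to 265, and chromatin genes called from 0 to 1, 0 to 0 and 1 to 1. Partner genes called ran from 0 to 1, 0 to 0 and 0 to 3, and medians from 0.0601 to 0.145, -0.0138 to 0.0401 and -0.153 to -0.0628. Genes called in the first comparison fell to 62, 60, 42 and 70 without Saline 1, 2, 3 and 4, and were 197 without Saline 8. In the second they were 15 without Saline 8, 7 without Abstinence 5, 6 without Saline 7 or Maintenance 6, and 1 without any of Saline 1, 2, 3, 5 and 6 and Abstinence 1, 2 and 6. In the third they were 265 without Maintenance 8 and 89, 92 and 100 without Abstinence 3, 4 and 7. The causes of these shifts were not tested. Hdac7, Ezh2 and Kmt2b rest on few counts, with 0, 45 and 85 in their lowest libraries.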
